A study of Mus musculus with 21 samples.

Results

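The nuclear genes that encode the proteins of the mitochondrial ribosome were examined in epididymal white adipose tissue, the visceral fat beside the epididymis. Members were all genes whose symbol starts with Mrpl or Mrps followed by a digit, without the suffix of a pseudogene. This gave 76 of the 38087 genes in the table. The rule used names only and no measured value, but it was set with earlier results of these data known. All samples came from male C57BL/6j mice aged 15 to 16 weeks and fed ad libitum. The germ-free mice, reared without microbes, gave 9 libraries, with 2 each at zeitgeber times (ZT, hours after lights on) 6, 10 and 22 and 1 each at ZT 2, 14 and 18. The conventionally raised mice, which carry a gut microbiota, gave 12 libraries, with 2 at each of the 6 times. Whether every library stands for its own mouse is not stated in the labels, so the p-values below describe the spread between libraries, which may be technical.

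Mitochondria have ribosomes of their own, descended from those of bacteria. They translate the few messenger RNAs encoded in mitochondrial DNA, which specify core subunits of the respiratory chain, while every protein of these ribosomes is made in the cytosol from nuclear genes and imported. The large subunit (Mrpl genes) forms peptide bonds and the small subunit (Mrps genes) holds the messenger RNA. Some of the proteins have bacterial counterparts and others are found in mitochondria only. In white fat, mitochondria are known to supply energy and precursors for making and burning lipid. The symbols do not always follow the subunit. Mrps30 and Mrps18a encode proteins of the large subunit, and the product of Mrps36 is now placed in the 2-oxoglutarate dehydrogenase complex and not in the ribosome. The members were therefore counted as 49 large-subunit genes, 26 small-subunit genes and Mrps36.

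Total counts per library ranged from 24388294 to 48348181, with means of 3.67e+07 in germ-free and 3.11e+07 in conventional libraries. The lowest level of any member in any library was 5.77 CPM (counts scaled to a common library size with TMM normalization). All 76 members passed the filter on low counts, as 18334 genes did in all. Adipocyte markers were abundant in both arms, with the 8 of them summing to 22578 to 34801 CPM in germ-free and 20822 to 31723 CPM in conventional libraries. Transcripts of neighbouring tissues were present in some libraries of both arms. Ciliated duct markers reached 581 CPM in 1 germ-free and 244 CPM in 1 conventional library. Male accessory gland markers reached 1580 CPM in 1 conventional library.

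Promoters are shown for the 3 members with the highest fold change between the arms and for the 3 with the lowest, since the members moved together across libraries. Each runs from 250 bases before to 50 bases after the RefSeq start in GRCm38.p6, 5′ to 3′ on the gene's strand. Capitals mark a match to NRF1 (GCGCNTGCG), ETS (CCGGAAG) or YY1 (AANATGGC), each read on both strands. NRF1, the ETS-family factor GABP and YY1 are known regulators of nuclear genes for mitochondrial proteins. The highest fold changes were those of Mrpl34 at chr8:71464676-71464975 (plus strand), Mrpl30 at chr1:37890227-37890526 (plus strand) and Mrpl42 at chr10:95501900-95502199 (minus strand). The lowest were those of Mrpl33 at chr5:31613701-31614000 (plus strand), Mrpl24 at chr3:87919294-87919593 (plus strand) and Mrps25 at chr6:92183974-92184273 (minus strand).
Mrpl34: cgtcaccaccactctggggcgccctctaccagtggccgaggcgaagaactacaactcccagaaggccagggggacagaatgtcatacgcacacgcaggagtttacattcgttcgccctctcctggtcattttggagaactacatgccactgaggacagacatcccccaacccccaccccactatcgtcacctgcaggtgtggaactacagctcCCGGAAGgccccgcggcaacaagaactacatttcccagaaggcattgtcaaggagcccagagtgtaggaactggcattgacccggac
Mrpl30: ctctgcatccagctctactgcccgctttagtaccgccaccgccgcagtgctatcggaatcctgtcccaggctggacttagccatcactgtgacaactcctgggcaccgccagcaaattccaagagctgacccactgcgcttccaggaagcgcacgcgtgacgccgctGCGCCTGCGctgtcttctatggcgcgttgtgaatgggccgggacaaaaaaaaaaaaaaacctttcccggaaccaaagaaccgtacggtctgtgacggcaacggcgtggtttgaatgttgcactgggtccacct
Mrpl42: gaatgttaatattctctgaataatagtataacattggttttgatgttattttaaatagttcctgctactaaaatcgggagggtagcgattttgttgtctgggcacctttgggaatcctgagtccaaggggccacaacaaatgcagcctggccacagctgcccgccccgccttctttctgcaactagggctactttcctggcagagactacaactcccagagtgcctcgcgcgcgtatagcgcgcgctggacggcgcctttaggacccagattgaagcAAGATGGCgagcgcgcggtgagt
Mrpl33: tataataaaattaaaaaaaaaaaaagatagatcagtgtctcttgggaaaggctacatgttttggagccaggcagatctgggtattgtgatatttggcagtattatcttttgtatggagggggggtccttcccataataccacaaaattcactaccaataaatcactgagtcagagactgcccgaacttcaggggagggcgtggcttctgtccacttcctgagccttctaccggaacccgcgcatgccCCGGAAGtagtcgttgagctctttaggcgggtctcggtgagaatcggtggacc
Mrpl24: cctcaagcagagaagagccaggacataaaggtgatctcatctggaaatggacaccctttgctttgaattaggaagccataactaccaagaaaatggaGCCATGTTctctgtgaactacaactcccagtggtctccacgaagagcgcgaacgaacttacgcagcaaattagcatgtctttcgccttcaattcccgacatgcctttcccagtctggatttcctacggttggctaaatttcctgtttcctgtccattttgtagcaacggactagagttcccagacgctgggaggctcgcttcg
Mrps25: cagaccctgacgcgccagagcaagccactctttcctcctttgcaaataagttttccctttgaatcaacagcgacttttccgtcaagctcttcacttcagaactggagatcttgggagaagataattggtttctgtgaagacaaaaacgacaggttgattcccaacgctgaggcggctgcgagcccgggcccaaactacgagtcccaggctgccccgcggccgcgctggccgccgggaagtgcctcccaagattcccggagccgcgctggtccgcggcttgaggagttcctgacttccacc

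Of these promoters, Mrpl34 and Mrpl33 held the ETS letters, Mrpl30 those of NRF1, Mrpl42 and Mrpl24 those of YY1, and Mrps25 none of these letters. Over the 73 promoters of the 67 members found in the table, 23.3% held the NRF1 letters, against 11.5% of the 14027 promoters of genes tested. The ETS letters stood in 32.9% of members' promoters and in 15.0% of those of genes tested. For YY1 the shares were 27.4% and 7.50%. The E-box of clock factors (CACGTG) was in 9.59% and 9.28%, and the D-box (TTANGTAA), the site of PAR bZIP clock-output factors, in 0% and 1.60%. Some members have several promoters, and those of Mrpl2 overlap and hold the same E-box. Counted by gene, the members' shares were 25.4% (NRF1), 35.8% (ETS), 29.9% (YY1), 7.46% (E-box) and 0% (D-box). No overlap between motifs was removed, and a match describes letters in this window only. The 46 members with an NRF1, ETS or YY1 match had a median of 0.24 for the log2 fold change between the arms, and 38 of them passed the test described next. The 21 members with none of these matches had a median of 0.23, and 18 passed, so the 2 sets had close values.

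Germ-free fat had higher levels of most mitochondrial ribosomal protein transcripts, by small amounts. In the edgeR quasi-likelihood fit with time as a factor, 62 of 76 members were higher in germ-free mice at an adjusted p below 0.05 (15.2% of all genes tested), 0 were lower (11.5% of all genes tested) and 14 did not pass. The log2 fold change was above 0 for all 76 members (54.8% of all genes tested). The members' median log2 fold change was 0.24, against 0.03 for all genes tested, and the range was 0.01 to 0.39. Its SD among members was 0.08, while the median standard error (SE) of a single member was 0.06. For 2 members every germ-free library lay above every conventional one (0.295% of all genes tested), and only Mrpl34 exceeded a fold of 1.3. Without the only germ-free library at ZT18, replicate 2, 34 members passed (8.45% of genes tested). Over the 21 fits that leave out 1 library each, 34 of the 62 calls held in all and 28 were lost in at least 1. When only ZT06, ZT10 and ZT22 were used, where both arms have 2 libraries, 4 passed (2.88%). The libraries numbered 2 in their titles, taken alone, gave 6 (2.55%). Those numbered 1, with 3 germ-free libraries and 2 residual degrees of freedom, gave 0 (0%), and 7 at an unadjusted p below 0.05 (4.82%). With a cosine and sine for time in place of the 6 levels, they gave 0 (0.584%) and 25 unadjusted (8.62%). With the library number as a block in the fit of all libraries, 61 passed (14.2%).

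**Figure D1:**
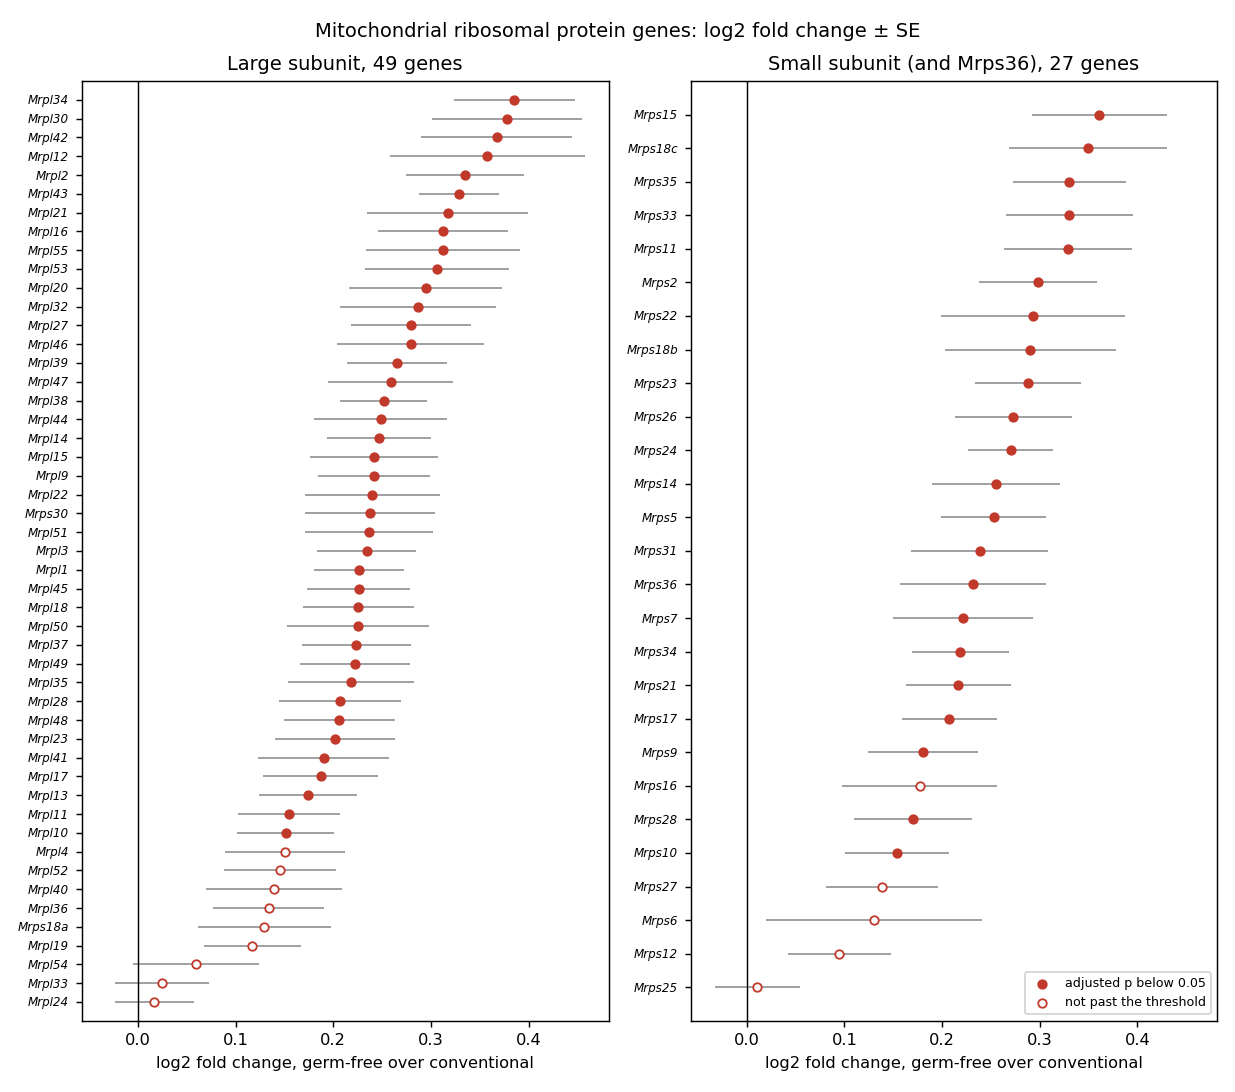
Log2 fold change of germ-free over conventional fat (horizontal axis) with its SE for each of the 76 genes (vertical axis), large subunit on the left and small subunit with Mrps36 on the right; filled points passed at an adjusted p below 0.05. All points lie above 0, between 0.01 (Mrps25) and 0.39 (Mrpl34), and 62 are filled.

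In the large subunit, 40 of 49 genes rose, with a median log2 fold change of 0.23. Mrpl34, a small protein of bacterial type, had 15.7, 19.0 and 24.7 CPM as the lowest, median and highest of the germ-free libraries, against 13.4, 15.2 and 16.9 CPM in conventional libraries. In 8 of 9 germ-free libraries it lay above every conventional one (log2 fold change 0.39 ± 0.06, SE; adjusted p = 0.000521). Mrpl30, another bacterial-type protein, ranged from 55.7 to 84.8 CPM in germ-free libraries with a median of 63.9, against 41.3 to 62.9 CPM with a median of 46.9 in conventional ones. Here 5 of 9 germ-free libraries were above all conventional ones (0.38 ± 0.08, adjusted p = 0.00224). Mrpl42, which is found in mitochondria only, stood at 37.4, 44.3 and 59.3 CPM (lowest, median, highest) in germ-free and 29.5, 33.2 and 44.9 CPM in conventional libraries (0.37 ± 0.08, adjusted p = 0.00276). Its arms overlapped in part, with 4 germ-free libraries above all conventional ones.

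The stalk of the large subunit recruits translation factors, and its proteins did not move by equal amounts. Mrpl12, the stalk protein itself, had 29.2, 33.0 and 46.2 CPM in germ-free and 21.3, 26.5 and 39.5 CPM in conventional libraries (lowest, median, highest). It rose by 0.36 ± 0.10 (adjusted p = 0.0144), although only 1 germ-free library exceeded the highest conventional one, at ZT06. Mrpl10, which anchors the stalk, had 47.2, 54.6 and 58.7 CPM in germ-free and 43.6, 47.4 and 54.5 CPM in conventional libraries, and rose by 0.15 ± 0.05 (adjusted p = 0.0323), the smallest fold change that passed. Mrpl11, at the base of the stalk, rose by 0.15 ± 0.05 as well (adjusted p = 0.0378). The calls for Mrpl10 and Mrpl11 did not hold on leaving out any 1 of 12 and of 16 libraries (adjusted p as high as 0.150 and 0.175). Whether the fold changes of these members differ from each other was not tested.

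Mrpl2, a core protein of bacterial type beside the site where peptide bonds form, had 36.6, 42.9 and 46.9 CPM in germ-free and 28.0, 33.8 and 38.2 CPM in conventional libraries (0.34 ± 0.06, adjusted p = 0.00107). At 7 of 9, most of its germ-free libraries lay above all conventional ones. The other large-subunit genes among the lowest that passed were Mrpl48 (0.21), Mrpl23 (0.20), Mrpl41 (0.19), Mrpl17 (0.19) and Mrpl13 (0.17), all log2 fold changes. Mrpl23 lines the tunnel through which the new chain leaves. Mrpl48 did not pass without germ-free ZT18 replicate 2 (adjusted p = 0.0697), and Mrpl23 did not on removal of any 1 of 3 libraries (adjusted p as high as 0.103). Mrpl17 and Mrpl13 lost the call on removal of any 1 of 9 and of 5 libraries. The call for Mrpl41 did not hold on leaving out any 1 of 15 libraries (adjusted p as high as 0.208).

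Mrpl43 and Mrps24, named after their values were seen, were the pair whose arms did not overlap. Mrpl43, found in mitochondria only, had 21.4, 23.4 and 25.9 CPM in germ-free and 16.5, 18.2 and 19.7 CPM in conventional libraries (lowest, median, highest; 0.33 ± 0.04, adjusted p = 0.000125). Mrps24, of bacterial type, had 43.1, 46.2 and 54.9 CPM in germ-free and 35.8, 38.6 and 42.7 CPM in conventional libraries (0.27 ± 0.04, adjusted p = 0.000562). Both passed at ZT06, ZT10 and ZT22 alone as well, as did Mrpl34 and Mrps35. Mrpl43 shares exon sequence on the opposite strand with Twnk, the gene of the mitochondrial DNA helicase, listed as Peo1 in the table, and whether counting used strand is not given in the sources used here. Peo1 had 0.07 ± 0.07 (adjusted p = 0.5004).

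In the small subunit, 21 of 26 genes rose, with a median log2 fold change of 0.25. Mrps15, of bacterial type, had 39.3, 43.7 and 56.4 CPM in germ-free and 32.2, 34.5 and 47.6 CPM in conventional libraries (0.36 ± 0.07, adjusted p = 0.00154). Its arms overlapped, and 4 germ-free libraries were above all conventional ones. Mrps35 and Mrps33 are found in mitochondria only. Mrps35 had 26.6, 32.8 and 39.5 CPM in germ-free and 22.9, 25.1 and 29.6 CPM in conventional libraries (0.33 ± 0.06, adjusted p = 0.000895). Mrps33, at a lower level of 6.86, 9.11 and 10.1 CPM in germ-free and 5.77, 7.41 and 8.13 CPM in conventional libraries, rose by the same 0.33 ± 0.07 (adjusted p = 0.00188). In both, 8 of 9 germ-free libraries exceeded all conventional ones.

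Mrps11, at the platform of the small subunit, had 11.8, 14.7 and 17.3 CPM in germ-free and 10.03, 11.60 and 13.77 CPM in conventional libraries (0.33 ± 0.07, adjusted p = 0.00204). It is transcribed away from another member, Mrpl46, whose first exon overlaps its own on the other strand, and Mrpl46 rose by 0.28 ± 0.08 (adjusted p = 0.0117), a call lost without germ-free ZT18 replicate 2. Mrps18c is 1 of 3 relatives of a single bacterial protein. It had 19.0, 21.9 and 26.2 CPM in germ-free and 14.04, 16.87 and 20.998 CPM in conventional libraries (0.35 ± 0.08, adjusted p = 0.00476). Of the other relatives, named for their kinship, Mrps18b rose by 0.29 ± 0.09 (adjusted p = 0.0218, lost on removal of any 1 of 6 libraries) and Mrps18a had 0.13 ± 0.07 (adjusted p = 0.174). The lowest fold changes that passed in the small subunit were those of Mrps9 (0.18), Mrps28 (0.17) and Mrps10 (0.15). Mrps9 lost the call on removal of any 1 of 5 libraries (adjusted p as high as 0.112). Mrps10 and Mrps28 each lost the call on removal of any 1 of 15 libraries (adjusted p as high as 0.164 and 0.223).

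By origin, 37 of 45 members of bacterial type rose (median log2 fold change 0.23) and 24 of 30 classed as found in mitochondria only (median 0.24). Large and small subunits and the 2 origins thus had close medians and shares. Mrps18a and Mrps18b, though relatives of a bacterial protein, were counted among the 30. Mrps36, which is no ribosomal subunit, rose by 0.23 ± 0.07 (adjusted p = 0.0295), a call that ended on removal of any 1 of 9 libraries.

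The members with the lowest fold changes that did not pass had nearly the same level in both arms. Mrps25, found in mitochondria only, had 24.5, 28.4 and 31.4 CPM in germ-free and 25.6, 28.5 and 30.4 CPM in conventional libraries (0.01 ± 0.04, adjusted p = 0.898). Mrpl24, at the exit of the peptide tunnel, had 46.8, 53.5 and 59.4 CPM in germ-free and 48.3, 52.0 and 57.5 CPM in conventional libraries (0.02 ± 0.04, adjusted p = 0.815). In both genes the arms overlapped over most of their range. Mrpl33 had 42.3, 51.3 and 53.2 CPM in germ-free and 42.9, 48.2 and 56.4 CPM in conventional libraries (0.02 ± 0.05, adjusted p = 0.763), and Mrpl54, found in mitochondria only, had 0.06 ± 0.06 on the log2 scale (adjusted p = 0.550). Mrps25 shares 4590 exon bases on the opposite strand with the receptor gene Nr2c2, which had 87.6 ± 10.9 CPM in germ-free and 86.5 ± 8.17 CPM in conventional libraries (SD, n = 9 and 12), and Mrpl24 shares 594 with Rrnad1. Without known use of strand, part of the reads of Mrps25 and Mrpl24 may come from their partners. Mrpl33 has no position in the GENCODE M21 annotation, so its overlap with other genes was not examined. Its deposited exon length was 9356 bases, and with offsets for each library's trend in exon length its log2 fold change was 0.13 (adjusted p = 0.120).

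Across the 75 members placed in the GENCODE M21 annotation, 31 share exon sequence with another gene. Of these 25 rose (median log2 fold change 0.24), and of the 44 without such sharing 37 rose (median 0.23). Mrps6, at 309 ± 62.6 CPM in germ-free and 285 ± 65.4 CPM in conventional libraries (SD, n = 9 and 12), stood far above the other members. Its deposited exon length of 12767 bases compares with 1533 in M21, and its exons overlap those of Slc5a3, the inositol transporter gene, on the same strand. Slc5a3 had 277 ± 62.6 CPM in germ-free and 256 ± 60.7 CPM in conventional libraries, so the values of Mrps6 are uncertain. Its log2 fold change was 0.13 ± 0.11 (adjusted p = 0.422). Without Mrps6, the members' CPM summed to 2342 ± 207 in germ-free and 1999 ± 129 in conventional libraries (SD, n = 9 and 12).

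Per kb of exon, as the table gives exon length, mean levels over all libraries ran from 2.52 to 59.5 CPM. Mrpl42 (59.5 CPM per kb), Mrpl20 (48.0), Mrps16 (41.7) and Mrpl52 (35.3) stood highest, and Mrps27 (2.52), Mrpl19 (2.97), Mrps10 (3.10) and Mrpl13 (4.00) lowest. The exon length in the table covers all annotated exons of a gene and equals that in M21 for 26 of 75 members, so these levels depend on the annotation. Mrpl42, for example, has 666 bases in the table and 3682 in M21. Of these genes, Mrpl20, of bacterial type, rose by 0.29 ± 0.08 (adjusted p = 0.0109), a call that ended on removal of germ-free ZT18 replicate 2 (adjusted p = 0.0594). Mrps16, Mrpl52, Mrps27 and Mrpl19 did not pass, with log2 fold changes of 0.18, 0.15, 0.14 and 0.12. Over the 76 members, the fold change showed a weak relation to level per kb (Spearman rho 0.10 across genes, which are not independent replicates).

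The members moved together from library to library. The median Pearson r of log2 CPM between 2 members over the 21 libraries was 0.719, and 0.558 after the mean of each arm was removed. It was above 0 for 97.2% of 2850 pairs. For 74 of 76 members r with the median of the others was above 0.5. The exceptions were Mrps25 (0.246) and Mrps6 (-0.273), named after their values were seen. These values describe the libraries, which share depth, composition and RNA quality across genes.

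**Figure D2:**
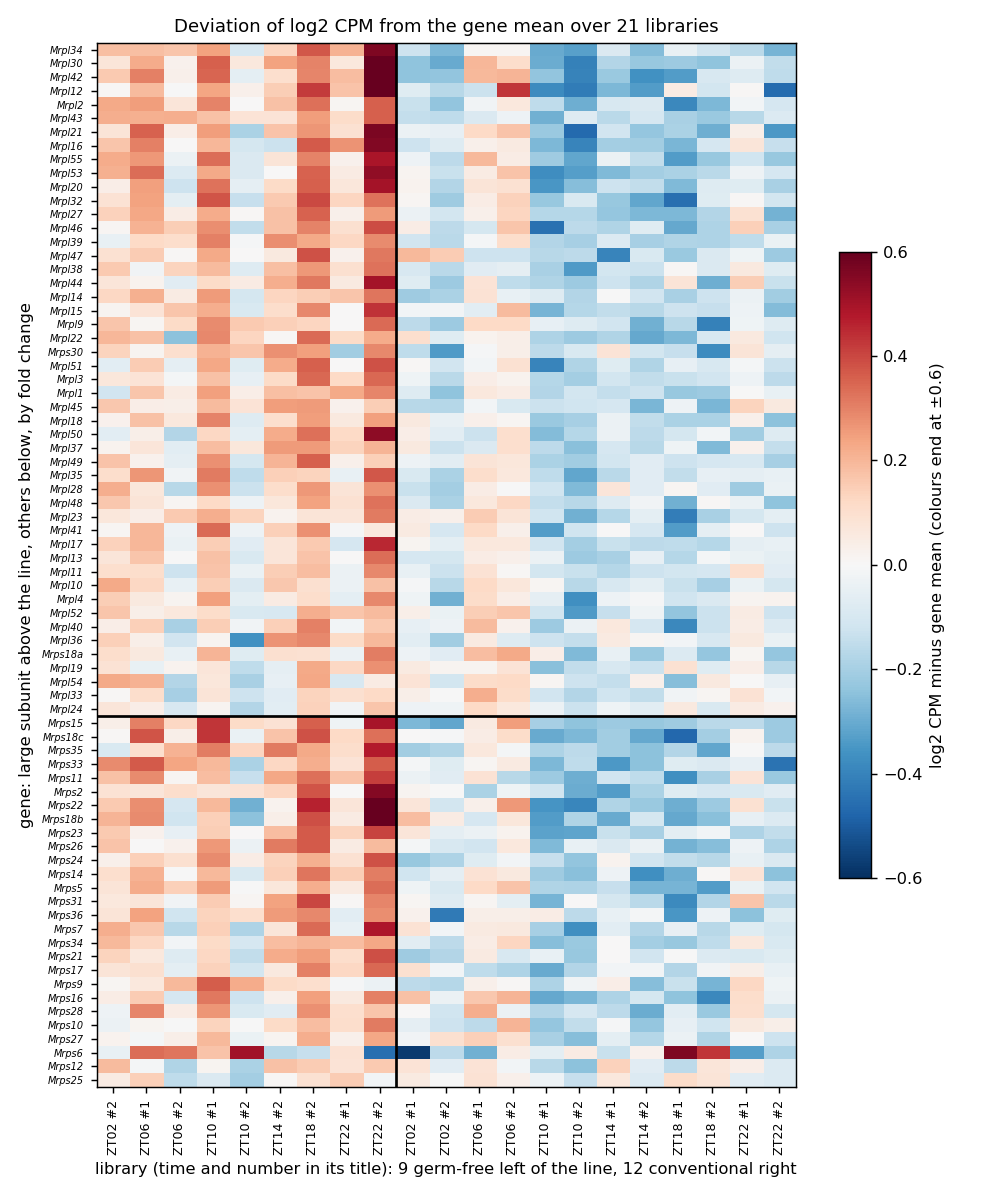
Each row is a gene (large subunit above the line, small subunit and Mrps36 below) and each column a library (9 germ-free left of the line, 12 conventional right, in order of time); colour gives log2 CPM minus the gene's mean over the 21 libraries. Red prevails on the germ-free side and blue on the conventional side. Germ-free ZT10 replicate 2 and both conventional ZT06 libraries go against this. Germ-free ZT06 replicate 2 and conventional ZT22 replicate 1 are mixed, each with 37 of 76 members above their mean, and conventional ZT02 replicate 1 has 30.

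Summarised per library as the median deviation of the members from their own means, the log2 values were 0.13 ± 0.12 in germ-free and -0.09 ± 0.09 in conventional libraries (SD, n = 9 and 12). Germ-free libraries ran from -0.06 at ZT10, replicate 2, to 0.32 at ZT22, replicate 2. Conventional ones ran from -0.20 at ZT10 to 0.06 at ZT06, so the arms overlapped. In germ-free ZT10 replicate 2, 23 of 76 members were above their mean, against 75 in its partner at the same time. The members' median per library had a Spearman rho of 0.51 with total count over the 21 libraries. Within germ-free and conventional libraries rho was 0.58 and 0.15. The part of depth in the members' levels was not tested. By time, the median difference between the arms over the members was 0.18 at ZT02, 0.01 at ZT06, 0.28 at ZT10, 0.25 at ZT14, 0.42 at ZT18 and 0.26 at ZT22. At ZT06, 42 of 76 members were higher in germ-free mice, against 53.3% of all genes tested, and at the other times 70 to 74 were, against 49.1% to 55.2%. The germ-free values at ZT02, ZT14 and ZT18 rest on 1 library each.

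**Figure D3:**
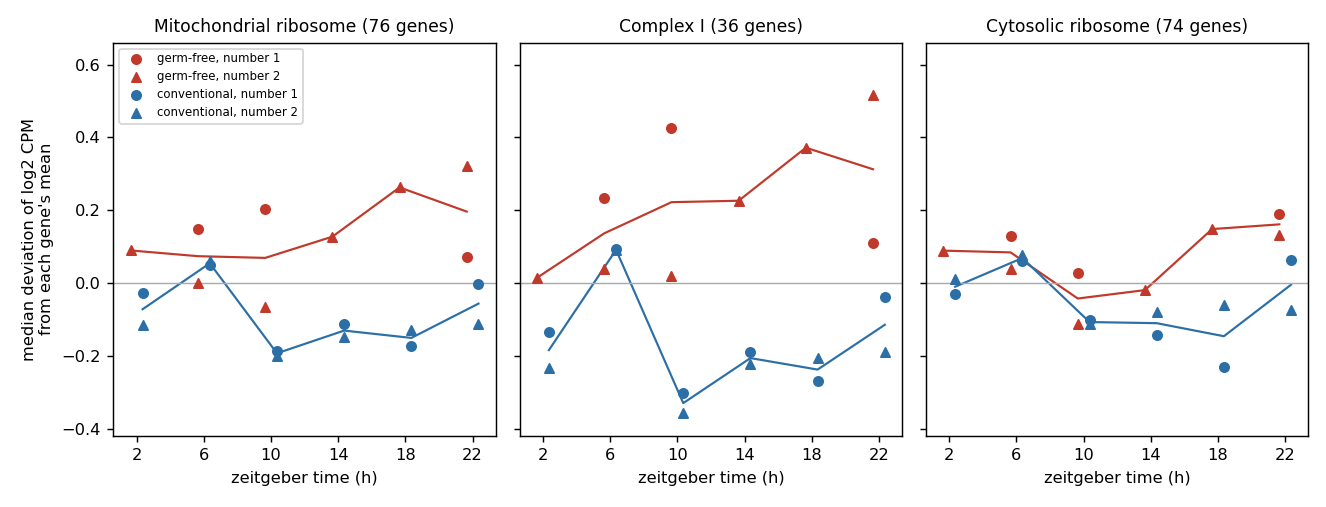
Median deviation of log2 CPM from each gene's mean (vertical axis) in each library against zeitgeber time in hours (horizontal axis), for the 76 mitochondrial ribosomal genes, 36 complex I genes and 74 cytosolic ribosomal genes; lines join the means of each arm and symbols give the number in the library's title. The 2 arms meet at ZT06 and stand apart most at ZT18 for the mitochondrial ribosome, and the complex I panel has the same outline with a larger spread.

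Daily rhythms of period 24 h were tested in each arm with edgeR, and none of the members passed. In germ-free mice 0 of 76 passed at an adjusted p below 0.05 (4.52% of all genes tested) and 13 at an unadjusted p below 0.05 (22.4% of all genes). In conventional mice 0 passed (0.796%), with 7 unadjusted (13.9%), and the rhythm differed between the arms for 0 (0%), with 6 unadjusted (7.59%). DESeq2 gave 1 member in germ-free mice, Mrpl50, and 0 in both other tests. Without germ-free ZT22 replicate 1, edgeR gave 3, which were Mrpl50, Mrps18b and Mrps2, of which Mrps18b and Mrps2 are named after their values were seen. The shares over all genes in these alternative fits are not given here.

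Mrpl50, a large-subunit protein found in mitochondria only, had the smallest p in germ-free mice, with a fitted log2 amplitude of 0.23 and a peak at 18.3 h (adjusted p = 0.0675). Its germ-free levels ran from 30.6 CPM in ZT06 replicate 2 to 50.2 CPM in ZT22 replicate 2. Replicate 1 had 35.4 CPM at ZT06 and 37.6 CPM at ZT22, so libraries of the same time differed. Conventional levels of Mrpl50 ran from 28.9 to 37.1 CPM. Next in germ-free mice came Mrps23, Mrpl36, Mrps21 and Mrpl3, with amplitudes of 0.17, 0.18, 0.16 and 0.13 and peaks between 18.9 and 19.4 h. In conventional mice the smallest p was that of Mrps5 (amplitude 0.17, peak at 4.36 h, adjusted p = 0.147). Mrps16, Mrps18c, Mrpl23 and Mrps6 followed, with adjusted p from 0.198 to 0.288. For the difference between arms, Mrps6, Mrpl37 and Mrpl50 had the smallest p, each with an adjusted p of 0.617. Mrps6 peaked at 7.63 h in germ-free and 15.6 h in conventional mice, and Slc5a3, which overlaps it, at 7.52 h and 15.8 h.

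Although no member passed, the fitted peaks lay close together. In germ-free mice 64 of 76 fell between 16 and 24 h, as did 32.6% of all genes tested. In conventional mice 62 of 76 fell between 0 and 8 h, as did 39.1% of all genes tested. The median fitted amplitude of the members was 0.11 in germ-free and 0.10 in conventional mice, below the 0.18 and 0.13 of all genes tested. Because the members share each library's deviation, a few libraries can set the peak of most of them, and these counts are a description.

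Other genes of mitochondrial protein synthesis were compared in the same fit. The counts of each list below stand against 15.2% of all genes tested that rose and 11.5% that fell. Mitochondrial ribosomal proteins under other symbols, with the insertase gene Oxa1l, gave 4 of 8 higher and 0 lower (median log2 fold change 0.17), and 3 of 7 higher without Oxa1l. With offsets for each library's trend in exon length, 2 of 8 rose, and Oxa1l and Gadd45gip1, a large-subunit protein, no longer passed (adjusted p = 0.0704 and 0.0890). Ptcd3, a small-subunit protein, stood at 76.3 ± 13.2 CPM in germ-free and 58.4 ± 5.74 CPM in conventional libraries (SD, n = 9 and 12; 0.38 ± 0.08, adjusted p = 0.00286). Ict1, a peptide-release protein built into the large subunit, rose by 0.26 ± 0.07, and Oxa1l by 0.18 ± 0.05. Dap3, a GTP-binding small-subunit protein, had 0.10 ± 0.05 (adjusted p = 0.199).

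Of 22 factors that assemble the mitochondrial ribosome, 7 rose and 0 fell (median log2 fold change 0.14). They included the helicase gene Ddx28 (0.28 ± 0.06), Rbfa (0.17 ± 0.05) and the GTPase gene Noa1 (0.17 ± 0.05). The call for Rbfa was lost with length offsets (adjusted p = 0.0860). Tfb1m, which methylates the small ribosomal RNA, had -0.01 ± 0.07 (adjusted p = 0.960). Of 15 mitochondrial translation factors, 10 rose and 0 fell (median 0.20). Tsfm, the exchange factor of elongation factor Tu, rose by 0.25 ± 0.05, Lrpprc, which stabilises mitochondrial messenger RNA, by 0.29 ± 0.06, and Guf1, an elongation factor, by 0.22 ± 0.05, and the release factor gene Mtrf1l had 0.02 ± 0.06 (adjusted p = 0.823). Of 20 genes that charge mitochondrial transfer RNAs, 6 rose and 0 fell (median 0.14), among them Iars2 at 201 ± 24.0 CPM in germ-free and 162 ± 13.6 CPM in conventional libraries (0.30 ± 0.06). Rars2 (0.22 ± 0.05) and Hars2 (0.13 ± 0.04) rose too, and Cars2 had 0.02 ± 0.09 (adjusted p = 0.884).

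Of 10 genes for the copying and transcription of mitochondrial DNA, 4 rose and 0 fell (median log2 fold change 0.10). Tfam, which packages and transcribes mitochondrial DNA, rose by 0.21 ± 0.04, the elongation factor gene Tefm by 0.30 ± 0.08 and Tfb2m by 0.15 ± 0.05, while Polg2, a polymerase subunit, had 0.00 ± 0.08 (adjusted p = 0.985). Of 9 regulators of mitochondrial biogenesis, 2 rose and 1 fell, with a median of 0.04. Over all genes tested 15.2% rose and 11.5% fell, so these counts lie near those shares. With length offsets 5 of the 9 rose and 1 fell, with a median of 0.12, against 2744 and 1903 of all 18334 genes tested. Esrra, a nuclear receptor that drives oxidative genes, had 47.2 ± 9.34 CPM in germ-free and 33.8 ± 3.67 CPM in conventional libraries (SD, n = 9 and 12; 0.49 ± 0.09, adjusted p = 0.000892). Its coactivator Ppargc1a rose by 0.52 ± 0.16 (adjusted p = 0.0288), and the call did not hold on removal of any 1 of 8 libraries (adjusted p as high as 0.1004). Pprc1, a related coactivator, fell to 12.4 ± 2.83 CPM in germ-free libraries, against 17.8 ± 4.49 CPM in conventional ones (-0.43 ± 0.14, adjusted p = 0.0280, lost on removal of any 1 of 3 libraries). Among the other genes named from these lists, the calls of Ict1, Rbfa and Tefm were lost in 1 such fit each, those of Noa1, Hars2 and Tfb2m in 4 and that of Oxa1l in 7. Nrf1, the factor of the NRF1 letters above, had 0.00 ± 0.04 (adjusted p = 0.986), and with length offsets it rose by 0.12 (adjusted p = 0.0300). Gabpa and Gabpb1, subunits of another factor that binds such promoters, had 0.04 and 0.07 (adjusted p = 0.361 and 0.283), and 0.09 and 0.16 with length offsets (adjusted p = 0.0352 and 0.0160). Yy1, the factor of the YY1 letters, went the other way, with -0.12 (adjusted p = 0.149), and -0.15 with length offsets (adjusted p = 0.0647). Gabpa, Gabpb1 and Yy1 are named after their values were seen.

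Set beside these were the nuclear subunits of respiratory complex I, which the mitochondrial ribosome helps to build, and the proteins of the cytosolic ribosome. Of 36 complex I genes 35 rose and 0 fell (15.2% and 11.5% of all genes tested), with a median log2 fold change of 0.38. Of 74 cytosolic ribosomal genes tested 34 rose and 0 fell, with a median of 0.11. The members' median per library followed that of complex I with a Pearson r of 0.976 over the 21 libraries, and of 0.925 and 0.977 within the 9 germ-free and 12 conventional libraries. With the cytosolic ribosomal genes r was 0.795 over all libraries. All these measures come from the same libraries.

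**Figure D4:**
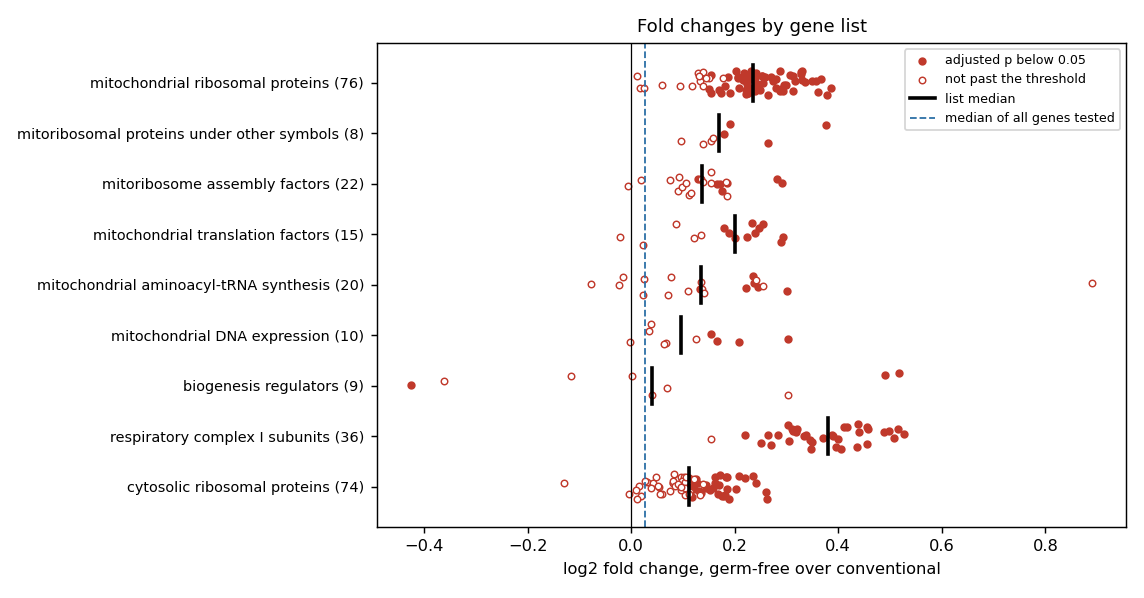
Log2 fold change of germ-free over conventional fat (horizontal axis) for each gene of 9 lists (vertical axis, number of genes tested in brackets); filled points passed at an adjusted p below 0.05, black bars are list medians and the dashed line is the median of all genes tested. The median was 0.24 for the mitochondrial ribosomal proteins, between those of the cytosolic ribosome (0.11) and complex I (0.38).

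The members' level moved with a trend in exon length across libraries. In each library, the rank correlation between exon length and a gene's deviation from its mean ran from -0.307 to 0.104 in germ-free and from -0.110 to 0.182 in conventional libraries. The members' median per library had a Pearson r of -0.904 with this trend over the 21 libraries, -0.842 within the germ-free and -0.763 within the conventional ones. Members have a short summed exon length per gene, with a median of 1873 bases against 3324 for all genes tested. Genes of 1000 to 2000 bases had a median log2 fold change of 0.09 over all genes tested. Over the 29 members among them it was 0.25. With offsets for each library's length trend, 50 members rose (15.0% of genes tested), with 74 fold changes above 0 and a median of 0.21. Of the 50, 47 were among the 62, and the others were Mrps27, Mrpl19 and Mrps6. The offsets used the deposited lengths, which were 7124 bases for Mrps27 and 12767 for Mrps6, against 2093 and 1533 in M21. Mrpl19 had 5450 bases in both. Under the same length offsets 34 of 36 complex I genes and 13 of 74 cytosolic ribosomal genes rose. The 15 calls lost included Mrpl10, Mrpl11, Mrpl23, Mrpl41, Mrpl50, Mrps9 and Mrps28 (adjusted p from 0.0776 to 0.205). With offsets for length and GC content together, 49 members rose (14.9%).

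**Figure D5:**
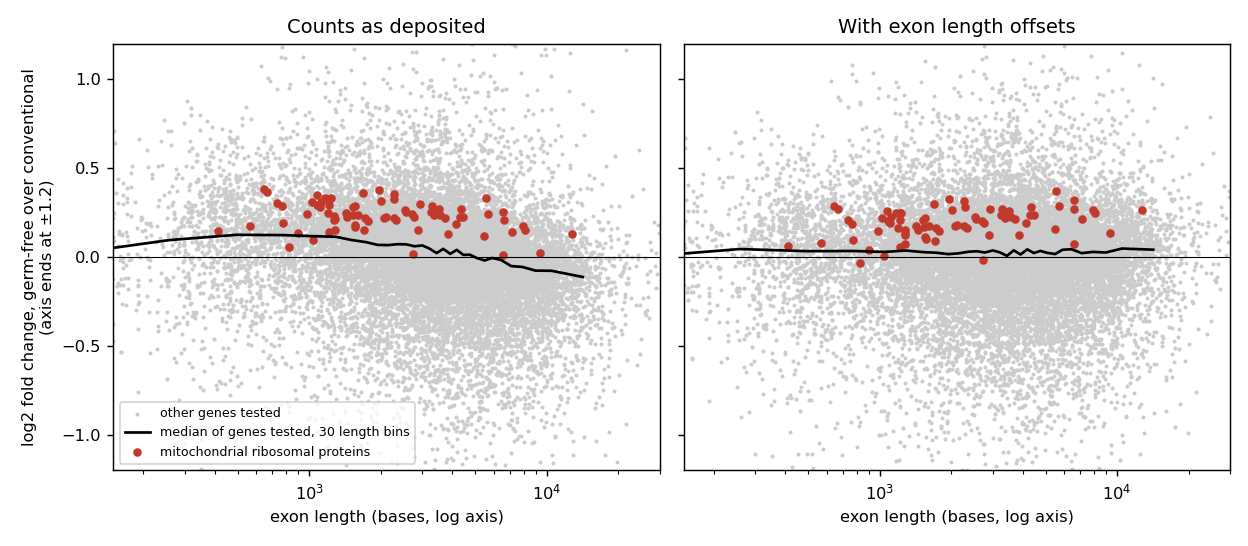
Log2 fold change of germ-free over conventional fat (vertical axis) against exon length in bases (log axis) for all genes tested (grey) and the mitochondrial ribosomal proteins (red), with counts as deposited on the left and with exon length offsets on the right; the black line is the median of all genes tested in 30 length bins. The line falls with length on the left and is nearly level on the right, and most red points lie above it on both sides.

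Markers of thermogenic adipocytes, fat cells rich in mitochondria, moved with the members too. The 8 markers summed to 20.05 to 73.79 CPM in germ-free and 14.1 to 25.1 CPM in conventional libraries, and 4 of the 6 tested rose: Cidea, Cox8b, Dio2 and Ppargc1a, the last of which is also among the regulators above. Ucp1, the defining uncoupling protein, stayed at or below 0.0803 CPM in germ-free and 0.113 CPM in conventional libraries, and Zic1, a marker of brown fat, was at 0 in all germ-free libraries. The members' median had a Pearson r of 0.829 with the log2 of this sum over 21 libraries, and of 0.546 and 0.704 within the germ-free and conventional ones. Of the 6 endothelial markers 3 rose, and their sum was 604 to 878 CPM in germ-free and 521 to 826 CPM in conventional libraries. For this sum the same r was 0.507 over 21 libraries, and 0.00165 and -0.0120 within the germ-free and conventional ones. The part of either cell type in the members' levels was not tested, and in bulk tissue fewer cells of a type and less RNA per cell cannot be told apart. Leaving out the 5 libraries with the most ciliated duct RNA, 2 germ-free and 3 conventional, 61 members rose (13.6% of genes tested) with a median of 0.28.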

How the data were processed

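Total RNA was purified from epididymal fat, depleted of ribosomal RNA and made into stranded libraries, per the labels' protocols. The submitters' processing notes name STAR 2.4.0i and mm10. How reads were counted, with which annotation and strand setting, is not given in the sources used here. Raw counts per gene over exons were deposited by the authors with an exon length, and were used as they stand. All columns were used.

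In R 4.3.3 with edgeR 4.0.16, genes were kept by filterByExpr on the arm, scaled by TMM and fitted with glmQLFit (robust) to all 21 libraries. Levels were compared with time as a 6-level factor. Rhythms used a mean, cosine and sine of 24 h for each arm. P-values were adjusted by Benjamini-Hochberg over 18334 genes, with a threshold of 0.05. Log2 CPM used a prior count of 2. Length offsets came from a lowess (span 0.3) of each library's deviations on log exon length. DESeq2 1.42.0 was an alternative, besides other normalization, no filter, a replicate block, subsets of libraries and leaving out each library. Length with GC offsets, and the libraries numbered 1 with a cosine time term, were chosen after seeing the data. Ciliated-high libraries exceeded 5 times the median marker sum. The tests were checked on simulated data. Positions came from GENCODE M21 and promoters from RefSeq (GRCm38.p6).

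Named genes were the 10 highest and 10 lowest fold changes that passed, the 4 smallest that did not, the 4 highest and 4 lowest levels per kb, the 5 smallest rhythm p-values in each arm and the 3 smallest for the difference, and in each list up to 3 that passed with the smallest p and 1 with the largest p. The members and lists were chosen with earlier results of these data known.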

Additional observations from a re-analysis of the deposited data

How the results depend on the processing

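The median log2 fold change of the 76 members stayed between 0.18 and 0.28 in every alternative. The count of members higher in germ-free fat, 62 with all libraries, was 34 to 64 with 1 library left out, lowest without germ-free ZT18 replicate 2, and 34 of the 62 passed in all 21 of these fits. It was 4 at ZT06, ZT10 and ZT22 alone, 6 in libraries numbered 2 and 0 in those numbered 1, both with time as a factor (7 unadjusted; 2 residual degrees of freedom) and with a cosine and sine (25 unadjusted). These subsets hold fewer libraries. It was 58 with DESeq2 size factors, 54 without a filter, 62 with DESeq2, 50 with length offsets and 49 with length and GC offsets. With the replicate block it was 61, and under this block alone no count of members moved by over 1.5 times. For the 36 pairs of the 9 groups that have both numbers, 1 correlation per pair of groups measured how far the numbers matched. It ran from -0.59 to 0.60, and exceeded 0.1 for 20 pairs. Among 6 groups, conventional ZT06 to ZT22 and germ-free ZT06, all 15 pairs were at 0.28 to 0.60, while germ-free ZT22 had -0.59 to -0.12 with the other groups. Since not every pair exceeded 0.1, the number was not taken to pair libraries. Members rhythmic in germ-free mice were 0 to 3 with 1 library left out and 1 with DESeq2.

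Log2 fold changes below 0 appeared only in members that had not passed. With 1 library left out, Mrps25 ran from -0.0220 to 0.0320, Mrpl24 from -0.0195 to 0.0323 and Mrpl33 from -0.0110 to 0.0579. With length offsets Mrpl54 had -0.0357 and Mrpl24 -0.0190, and with length and GC offsets Mrpl24 had -0.0326. At ZT06, ZT10 and ZT22 alone, Mrpl54 had -0.0453, Mrpl33 -0.0189, Mrpl24 -0.0424 and Mrps25 -0.00802. In libraries numbered 2 Mrps6 had -0.0319 and Mrps25 -0.00573, and in those numbered 1 Mrpl24 had -0.0494 and Mrps18a -0.0184, and, with a cosine and sine, Mrpl24 had -0.0380 and Mrps12 -0.00305. Mrps25 had -0.000165 without a time term and -0.00443 without the libraries high in ciliated markers. The causes were not tested. No member fell below 5.77 CPM in any library, and times with 1 germ-free library give no spread of their own.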

Other observations

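Divergent neighbours were examined for 17 members whose start lies within 1000 bases of the start of a protein-coding gene on the other strand that begins upstream of it. Pairs whose starts cross, such as Mrpl46 and Mrps11, were left out. Of the members 13 rose, with a median log2 fold change of 0.22. Of the neighbours 5 rose and 1 fell, with a median of 0.12, against 15.2% and 11.5% of all genes tested. The following pairs were chosen after their values were seen. Mrpl30 rose by 0.38 ± 0.08, while Mitd1, with 66 bases between the starts, had -0.03 ± 0.04 (adjusted p = 0.650). Mrps18c rose by 0.35 ± 0.08, while Helq, a DNA helicase gene 29 bases away, fell by 0.17 ± 0.06 (adjusted p = 0.0448). Mrps27 had 0.14 ± 0.06 (adjusted p = 0.0814), and Ptcd2, 81 bases away, rose by 0.38 ± 0.06 (adjusted p = 0.000672). Whether the fold changes of a pair differ was not tested.

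The 4 pseudogene rows of the family, which the choice of members left out, had mean levels of 0.155 to 1.48 CPM, and 3 of them were tested. Mrpl48-ps showed a log2 fold change of 0.42 (adjusted p = 0.0790), Mrps36-ps1 0.37 (adjusted p = 0.270) and Mrpl23-ps1 0.20 (adjusted p = 0.297), so none passed. Reads of a pseudogene and its parent gene cannot be told apart with certainty without the counting settings.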
